A study of Mus musculus with 6 samples.

Results

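The 10 genes described here (Gfap, Vim, Osmr, Stat3, Socs3, Cebpd, Lcn2, Serpina3n, Timp1 and Fgf2) are genes of reactive gliosis and of the retinal stress response. They were chosen by name for what is known of them, though earlier results of these data were known. All 10 were found among the 19401 genes listed in these libraries. Of these 10 genes, 9 passed the minimum set for testing (at least 10 counts in at least 3 libraries), as did 15537 genes in all. Timp1 did not pass it and is left out of the main group comparison. A fit with no count minimum is given for it below.

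Retinal RNAseq compared control and efavirenz (EFV)-treated 5XFAD mice. These are transgenic mice on the B6SJL background, hemizygous for mutant human amyloid precursor protein and mutant human presenilin 1, and they serve as a model of Alzheimer's disease; both groups carried the transgenes, and wild type mice were not part of the comparison. EFV, an anti-HIV drug that at low dose activates the cholesterol 24-hydroxylase CYP46A1, was given in drinking water from 3 to 9 months of age at 0.08 mg/kg of body weight by the labels, whereas the study's methods give a slightly higher daily dose. By the study's methods, control mice received the vehicle, water with the detergent Tween, whereas the labels call them untreated. All mice were 9 months old, and the study's methods describe them as male. There were 3 libraries per group, each from retina plus retinal pigment epithelium (RPE) pooled over 5 to 6 mice, and errors below therefore describe how pools differed.

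In a stressed or injured retina, Muller cells (the radial glia that span the tissue) and the astrocytes of the nerve fiber layer increase their intermediate filaments, above all glial fibrillary acidic protein (GFAP). A main route to this response starts with cytokines of the interleukin-6 family, which bind receptors that share the gp130 subunit, activate Janus kinases and lead to phosphorylation of STAT3. STAT3 then drives the transcription of Gfap, of its own inhibitor Socs3 and of acute-phase genes, and much of its activity is set by phosphorylation, which RNA does not measure.

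The libraries held 23455167 to 24590278 counts, and TMM scaling factors ranged from 0.984 to 1.01. Retinal identity of the tissue was clear from its markers: 5 rod genes, led by Gnat1, had a summed level of 9782 to 10370 FPKM (fragments per kilobase of transcript, scaled to library size) and 8 Muller cell genes, led by Glul, of 1394 to 1454 FPKM. Control library 3 stood apart by its lens RNA, with a summed level of 1879 FPKM over 6 lens genes against 17.9 to 98.3 FPKM in the other libraries. Control library 2 held the least RPE RNA, 28.1 FPKM summed over 7 genes against 49.5 to 63.3 FPKM elsewhere. For several results below, values without either library are also given.

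By level, the order of the 10 genes was Vim, Stat3, Lcn2, Gfap, Cebpd, Serpina3n, Osmr, Socs3, Fgf2 and Timp1 (mean FPKM over the 6 libraries). Vim, at 59.6 FPKM, had a level above that of 94.7% of listed genes with an Entrez identifier, whereas Gfap, at 4.64 FPKM, was above 47.2% of them. Timp1, at 0.368 FPKM, stood lowest, above 23.4%. Between neighbours in this order, the ranges over the 6 libraries did not overlap for Vim and Stat3, Stat3 and Lcn2, Socs3 and Fgf2, and Fgf2 and Timp1. The ranges of the other neighbours (Lcn2 and Gfap, Gfap and Cebpd, Cebpd and Serpina3n, Serpina3n and Osmr, Osmr and Socs3) overlapped, so their order is not firm.

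**Figure D1:**
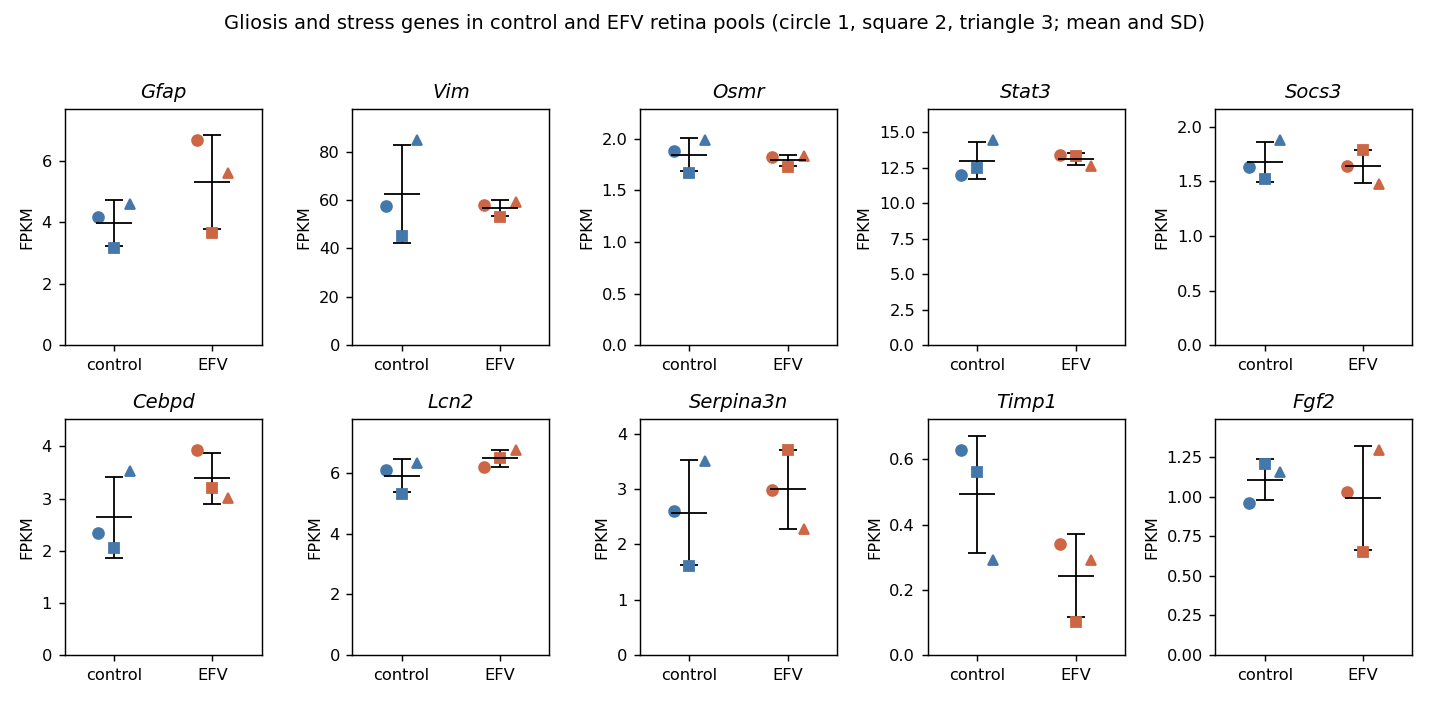
FPKM of the 10 genes in each library, with control in blue, EFV in orange and the mean and SD of 3 libraries per group in black. In every panel at least 1 EFV library lies within or touches the range of the control libraries, and the scales differ from Vim, at up to 84.9 FPKM, to Timp1, at up to 0.63 FPKM.

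None of the 9 genes tested passed the test of EFV-treated against control mice. In edgeR's quasi-likelihood test, 0 of 9 passed at a Benjamini-Hochberg adjusted p of 0.05 (adjusted p 0.999 to 1.00) and 0 of 9 at an unadjusted p of 0.05. Over all genes tested, 0 passed the adjusted threshold (smallest adjusted p 0.323) and 472 passed the unadjusted one, which is 3.04% of them. Fitted log2 fold changes, EFV minus control, ranged from -0.18 for Fgf2 to 0.40 for Gfap. They were positive for 4 genes and negative for 5, with a median of -0.00 beside 0.00 over all genes tested. The groups did not overlap for 0 of 9 genes, against 8.14% of all genes. An exact permutation test of 3 against 3 gives a two-sided p of at least 0.10, so these p-values come from the model. In a Poisson model, which the study's threshold uses and which takes no account of differences between pools, 3 of 9 genes (Gfap, Vim and Cebpd) passed, where 25.1% of all genes passed at an unadjusted p of 0.05 and 13.1% at an adjusted p of 0.05.

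**Figure D2:**
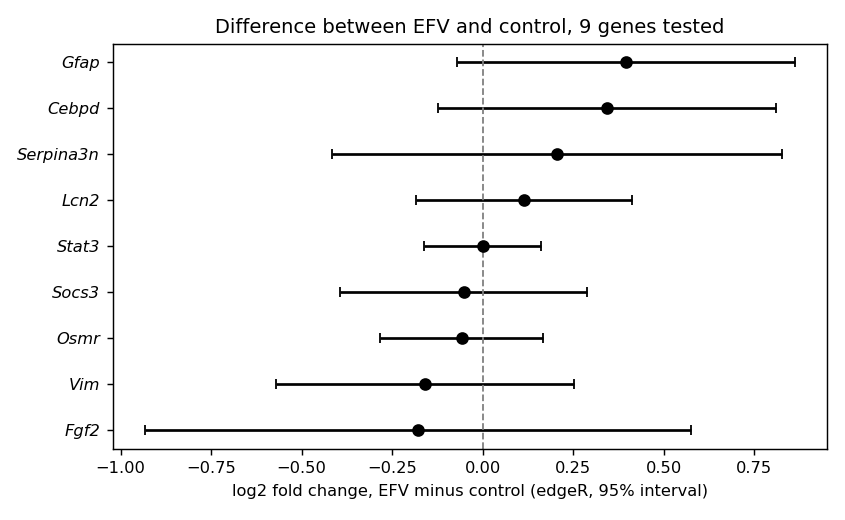
Log2 fold changes, EFV minus control, of the 9 genes tested, with 95% intervals from edgeR; the dashed line marks no difference. All 9 intervals include 0, and they are widest for Fgf2 (-0.93 to 0.58) and narrowest for Stat3 (-0.16 to 0.16).

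Gfap, the intermediate filament gene that is the usual readout of gliosis in Muller cells and astrocytes, had 4.15, 3.16 and 4.60 FPKM in control libraries 1, 2 and 3 and 6.67, 3.65 and 5.58 FPKM in EFV libraries 1, 2 and 3. EFV libraries 1 and 3 were the highest of the 6, but EFV library 2 lay below control libraries 1 and 3, so the groups overlapped. Mean levels were 3.97 ± 0.737 FPKM in control and 5.30 ± 1.53 FPKM in EFV-treated mice (SD, n = 3 each). In the edgeR fit, Gfap was 1.32-fold higher with EFV (95% interval 0.952 to 1.82; log2 fold change 0.40, SE 0.21, unadjusted p = 0.0870), which did not pass. Of the 9 genes it had the smallest p, yet its value leaned on single libraries. The log2 fold change was 0.20 without EFV library 1 and 0.26 without control library 2. It was 0.51 without control library 3 and 0.60 without EFV library 2. Without EFV library 2 the groups did not overlap, as was so for 18.8% of all genes, and edgeR gave an unadjusted p of 0.0054 (3.51% of all genes passed in that fit), with an adjusted p of 0.998. DESeq2 with all 6 libraries gave Gfap an unadjusted p of 0.0339 and an adjusted p of 1.00. In that fit 1.74% of all genes passed unadjusted. The study itself, by its Poisson-based threshold, listed Gfap among its differentially expressed genes, as higher with EFV.

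Gfap lies on chromosome 11 (mm10, 102887336 to 102897200, minus strand). Its start site is shown because the word that STAT proteins bind, TTCNNNGAA, crosses it; the sequence is from RefSeq (GRCm38.p6, chr11:102897184-102897212, minus strand), 5′ to 3′, with the matching bases in capitals, from position -2 to 7 counted from the start.
Gfap start: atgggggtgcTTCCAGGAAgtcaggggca
The word reads alike on both strands and was found in 8.30% of 32851 RefSeq promoter windows (250 bases before to 50 after a start). Of the 9 genes of this group with a window (there was none for Cebpd), 2 held it, Gfap and Socs3. Such a match describes the letters and says nothing of binding.

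Vim, which codes for vimentin, the filament protein that Muller cells carry also at rest, had 57.7, 45.0 and 84.9 FPKM in the control libraries and 57.8, 53.0 and 59.3 FPKM in the EFV libraries. Control library 3 was the highest and control library 2 the lowest, and all EFV libraries lay between them. Control averaged 62.5 ± 20.3 FPKM and EFV 56.7 ± 3.27 FPKM (SD, n = 3 each), and the log2 fold change of -0.16 (SE 0.18, 95% interval -0.57 to 0.25) had an unadjusted p of 0.405 in edgeR. The direction turned without control library 3, to 0.12 (SE 0.09, unadjusted p = 0.216 in edgeR). Without control library 2 it was -0.34, and edgeR gave an unadjusted p of 0.0386 (2.50% of all genes passed in that fit) and an adjusted p of 1.00. Control library 3 is the one with 1879 FPKM of lens RNA, and lens epithelium and fibers also make vimentin; the part of lens RNA in the Vim level was not tested.

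Osmr, the oncostatin M receptor subunit that pairs with gp130, was steady: 1.88, 1.67 and 1.99 FPKM in the control libraries and 1.82, 1.73 and 1.83 FPKM in the EFV libraries. All EFV libraries fell within the control range, whose low end was control library 2. With EFV the log2 fold change was -0.06 (SE 0.10, 95% interval -0.28 to 0.17), at an unadjusted p of 0.573 in edgeR. Without control library 2 it was -0.12 (SE 0.11, unadjusted p = 0.302 in edgeR).

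Stat3, the transcription factor at the centre of the response, had 11.98, 12.5 and 14.45 FPKM in the control libraries and 13.37, 13.35 and 12.63 FPKM in the EFV libraries. Its EFV levels also lay within the control range. Control averaged 13.0 ± 1.30 FPKM and EFV 13.1 ± 0.422 FPKM (SD, n = 3 each). Its log2 fold change was -0.00 (SE 0.07), and the 95% interval of -0.16 to 0.16, or 0.894- to 1.12-fold, was the narrowest of the 9. The sign of a value this close to 0 changed with the scaling and with the library left out, between -0.06 and 0.08.

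Socs3, which codes for the feedback inhibitor of gp130 signalling and is itself a STAT3 target, had 1.63, 1.52 and 1.88 FPKM in the control libraries and 1.64, 1.79 and 1.48 FPKM in the EFV libraries. Control library 3 was the highest and EFV library 3 the lowest, and the groups overlapped. A log2 fold change of -0.05 (SE 0.15, 95% interval -0.39 to 0.29) had an unadjusted p of 0.736 in edgeR and turned to 0.03 without control library 3 and to 0.02 without EFV library 3.

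Socs3 is on chromosome 11 (117966079 to 117970336, minus strand), and its promoter is shown as the other match to TTCNNNGAA, at positions -154 to -146. The 250 bases before the RefSeq start follow (GRCm38.p6, chr11:117969367-117969616, minus strand, match in capitals); they lie within the RefSeq span of the gene, since that span reaches farther upstream.
Socs3 promoter: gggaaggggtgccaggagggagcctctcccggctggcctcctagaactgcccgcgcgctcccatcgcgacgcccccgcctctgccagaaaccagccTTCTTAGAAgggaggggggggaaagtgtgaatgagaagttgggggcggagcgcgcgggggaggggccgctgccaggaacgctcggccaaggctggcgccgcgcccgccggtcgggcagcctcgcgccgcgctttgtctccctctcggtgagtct
Gfap and Socs3, which share this word, peaked in different libraries, Socs3 in control library 3 and Gfap in EFV library 1.

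Cebpd, which codes for the C/EBPδ transcription factor that cytokines and STAT3 induce in the acute-phase response, had 2.33, 2.05 and 3.53 FPKM in the control libraries and 3.94, 3.21 and 3.01 FPKM in the EFV libraries. All EFV libraries were above control libraries 1 and 2, but EFV libraries 2 and 3 were below control library 3. Control averaged 2.64 ± 0.786 FPKM and EFV 3.39 ± 0.490 FPKM (SD, n = 3 each). The log2 fold change was 0.34 (SE 0.21, 95% interval -0.12 to 0.81), next to that of Gfap in size, with an unadjusted p of 0.130 in edgeR. Without control library 3 it was 0.61, the groups did not overlap, as for 17.9% of all genes, and edgeR gave an unadjusted p of 0.0048 (3.41% of all genes passed in that fit) and an adjusted p of 1.00; without control library 2 it was 0.20. The expected counts of Cebpd were not whole numbers in any of the 6 libraries, so some of its reads were shared out between genes.

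Lcn2, which codes for lipocalin 2, a secreted iron carrier and acute-phase protein made by reactive glia and by neutrophils, had 6.09, 5.31 and 6.35 FPKM in the control libraries and 6.21, 6.49 and 6.78 FPKM in the EFV libraries. EFV libraries 2 and 3 were the highest of the 6, and EFV library 1 was below control library 3. Without control library 3 the groups did not overlap, as for 17.9% of all genes. Control averaged 5.92 ± 0.541 FPKM and EFV 6.49 ± 0.285 FPKM (SD, n = 3 each). The log2 fold change of 0.12 (SE 0.13, 95% interval -0.18 to 0.41) had an unadjusted p of 0.405 in edgeR and was positive in each of 18 other fits, from 0.05 to 0.17. Neutrophil genes were nearly absent: 5 of the 6 markers were listed, none reached the minimum for testing, and their summed level was 0 to 0.49 FPKM. The cells from which the Lcn2 RNA came were not tested.

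Lcn2 is on chromosome 2 (32384637 to 32387739, minus strand). Its promoter is shown because it alone of the 9 windows held the word TTGCNNAA, part of the motif that C/EBP proteins bind, on either strand; 10.8% of all RefSeq windows held it. The 250 bases before the start follow (GRCm38.p6, chr2:32387740-32387989, minus strand), with the match at positions -216 to -209 in capitals.
Lcn2 promoter: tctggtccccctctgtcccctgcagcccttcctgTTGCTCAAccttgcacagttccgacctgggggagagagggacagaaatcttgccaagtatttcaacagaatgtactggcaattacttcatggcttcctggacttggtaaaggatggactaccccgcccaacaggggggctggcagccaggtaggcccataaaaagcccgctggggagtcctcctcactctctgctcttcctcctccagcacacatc

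Serpina3n, a secreted serine protease inhibitor and a widely used marker of reactive astrocytes, had 2.6, 1.6 and 3.5 FPKM in the control libraries and 2.98, 3.71 and 2.28 FPKM in the EFV libraries. Control library 2 was the lowest and EFV library 2 the highest, and the groups overlapped. The spread was the widest of the 9 within control (2.57 ± 0.950 FPKM, against 2.99 ± 0.715 FPKM with EFV; SD, n = 3 each), at 37.0% of the mean. Between groups the log2 fold change was 0.21 (SE 0.27, 95% interval -0.42 to 0.83), with an unadjusted p of 0.474 in edgeR. It was -0.04 without control library 2 and 0.49 without control library 3 (SE 0.26, unadjusted p = 0.096 in edgeR). Serpina3n belongs to a cluster of near-identical genes, and its expected counts were not whole in 4 of 6 libraries, so its level is uncertain. Summed over the 5 Serpina3 genes with counts, a grouping chosen after the data were seen, the log2 fold change was 0.32 (SE 0.16, unadjusted p = 0.0820 and adjusted p = 0.999 in edgeR).

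Timp1, which codes for a secreted inhibitor of matrix metalloproteinases and is a classic STAT3 target of reactive astrocytes, was near the limit of detection. It had 13, 11 and 6 counts (0.63, 0.56 and 0.29 FPKM) in the control libraries and 7, 2 and 6 counts (0.34, 0.10 and 0.29 FPKM) in the EFV libraries. Control libraries 1 and 2 were the highest and EFV library 2 the lowest. Summed, control held 30 counts and EFV 15. When tested with no count minimum, edgeR gave a log2 fold change of -1.01 (SE 0.56) with an unadjusted p of 0.101 and an adjusted p of 0.999.

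Fgf2, which codes for basic fibroblast growth factor, a photoreceptor survival factor that stressed retina produces, had 0.96, 1.21 and 1.16 FPKM in the control libraries and 1.03, 0.65 and 1.30 FPKM in the EFV libraries. EFV library 2 was the lowest and EFV library 3 the highest. These levels came from 10 to 20 counts per library, and the log2 fold change of -0.18 (SE 0.33) had the widest interval, -0.93 to 0.58, and an unadjusted p of 0.606 in edgeR. Without EFV library 2 it was 0.04.

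The spread between libraries followed a pattern of its own. Control library 2 had the lowest level of 6 of the 9 genes (Gfap, Vim, Osmr, Cebpd, Lcn2 and Serpina3n), whereas it was the lowest library for 18.0% of all genes tested. Control library 3 had the highest level of 4 of the 9 (Vim, Osmr, Stat3 and Socs3), beside 16.3% of all genes, and the lowest of none. In this way the most extreme libraries for these genes were both in the control group. The part of the low RPE content of control library 2 and of the lens RNA of control library 3 in this spread was not tested.

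**Figure D3:**
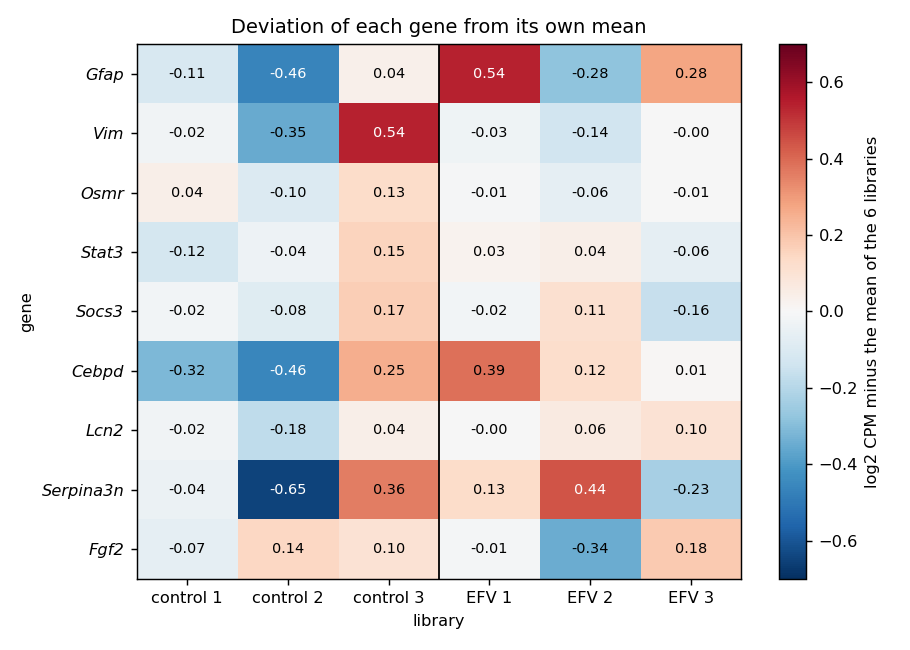
Log2 CPM (counts scaled to library size after TMM) of each of the 9 genes tested in each library, minus the mean of that gene over the 6 libraries, with red above and blue below the mean. Control library 2 is blue for 8 of 9 genes, down to -0.65 for Serpina3n, and the highest values are those of Vim in control library 3 and Gfap in EFV library 1, both 0.54.

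The rest of the gp130 and gliosis pathway was then examined in 10 lists with 72 genes, of which 65 were listed and 57 tested. As for the 10 genes themselves, 0 passed at an adjusted p of 0.05 in edgeR; 1 of 57 passed at an unadjusted p of 0.05 (1.75%, beside 3.04% of all genes), and it was lower with EFV. Of the 57 genes, 34 had positive and 23 negative log2 fold changes, with a median of 0.02.

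Among the ligands of the gp130 family, 4 of 7 were tested (Lif, Cntf, Clcf1 and Ctf1), with a median log2 fold change of -0.01. Cntf, ciliary neurotrophic factor, was the most abundant of them, at 2.85 ± 1.07 FPKM in control and 2.66 ± 0.420 FPKM with EFV (SD, n = 3 each). Il6 was not listed in any library, Il11 reached at most 13 counts, and Osm, whose product is the ligand of the OSMR receptor, had 1 count in all. The 5 receptor genes had a median of -0.04, and Cntfr, which codes for the CNTF receptor, led them with 36.9 ± 1.68 FPKM in control and 35.5 ± 1.56 FPKM with EFV (SD, n = 3 each). Il6st, the gp130 gene itself, was likewise close between groups, at 15.8 ± 0.472 and 15.5 ± 1.32 FPKM (SD, n = 3 each; chosen after its values were seen).

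Of the 13 genes of Janus kinase and STAT signalling, 10 had positive and 3 negative log2 fold changes, with a median of 0.05, and 0 passed at an unadjusted p of 0.05 in edgeR. Pias3, whose product inhibits STAT3, was the most abundant (42.4 ± 0.803 FPKM in control and 44.6 ± 3.11 FPKM with EFV; SD, n = 3 each). The other reactive astrocyte genes gave no pattern either. Of 7, 5 were tested, 4 of them had negative values and their median was -0.15; Cp, which codes for the ferroxidase ceruloplasmin and was the most abundant, had a log2 fold change of 0.02 (SE 0.06). The 6 cytoskeletal genes had a median of 0.08, and Krt18, a keratin gene, led them with 39.6 ± 7.80 FPKM in control and 42.0 ± 8.34 FPKM with EFV (SD, n = 3 each).

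In the list of C/EBP and AP-1 transcription factors, Fos was the gene that passed at the unadjusted threshold. This immediate-early gene had 9.30, 7.21 and 26.0 FPKM in the control libraries and 9.35, 5.38 and 6.76 FPKM in the EFV libraries. Control library 3 was far above the other libraries, which overlapped between groups. The log2 fold change of Fos was -1.00 (SE 0.43, unadjusted p = 0.0453, adjusted p = 0.999 in edgeR), and without control library 3 it was -0.22 (SE 0.20) and did not pass (unadjusted p = 0.304 in edgeR). Junb, the most abundant gene of the list, was likewise highest there, with 30.2 FPKM in control library 3 and 13.2 to 18.2 FPKM in the other libraries; its log2 fold change was -0.34 with all libraries and 0.11 without control library 3, and neither passed. Cebpd was also highest among controls in that library.

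In the remaining lists 0 genes passed at an unadjusted p of 0.05 in edgeR. The 8 genes of FGF receptors and trophic factors had a median log2 fold change of -0.04, and Fgf1, acidic fibroblast growth factor, was by level far above Fgf2 (13.9 ± 0.922 FPKM in control and 14.2 ± 0.512 FPKM with EFV; SD, n = 3 each). For the inhibitors and matrix metalloproteinases, 5 of 7 genes were tested, with a median of 0.02; Timp2, at 33.5 ± 1.66 and 34.4 ± 0.734 FPKM (SD, n = 3 each), was the most abundant, whereas Timp1 was scarce. Both genes for lipocalin 2 receptors were tested, and Slc22a17 had 103 ± 7.47 FPKM in control and 107 ± 4.28 FPKM with EFV (SD, n = 3 each). Serpina3g, the more abundant of the 2 Serpina3 paralogs tested, had 2.58, 2.71 and 2.80 FPKM in the control libraries and 3.46, 2.15 and 5.93 FPKM in the EFV libraries, with a log2 fold change of 0.49 (SE 0.30, unadjusted p = 0.135 in edgeR).

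**Figure D4:**
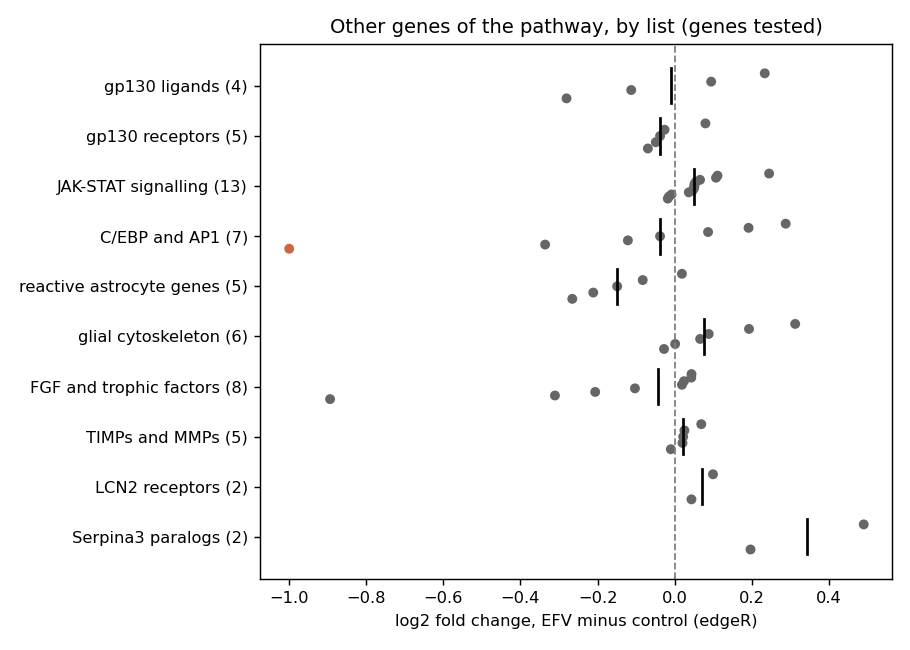
Log2 fold changes, EFV minus control, of the 57 other pathway genes tested, by list with the number of genes tested in parentheses; black bars mark the medians and orange marks the gene at an unadjusted p of 0.05 or less (Fos, -1.00). The medians lie between -0.15 for the reactive astrocyte genes and 0.34 for the Serpina3 paralogs.

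Because glial genes in whole tissue move with the share of glia, cell type markers were set beside the members; in such bulk RNA, fewer cells of a type and less RNA per cell cannot be told apart. The 8 Muller cell genes differed little between libraries, with the highest summed level 1.04 times the lowest and a two-sided exact permutation p of 0.6. The cells from which the Vim RNA came were not tested. The 5 astrocyte genes other than Gfap summed to 13.1, 11.7 and 12.4 FPKM in the control libraries and 14.0, 12.7 and 14.3 FPKM in the EFV libraries (two-sided exact permutation p = 0.2). EFV libraries 1 and 3, which were highest in Gfap, were highest here too, and control library 2 was lowest in both. S100b, a calcium-binding protein gene, was the most abundant of the 5. It had 6.19 FPKM in EFV library 3, 5.62 FPKM in EFV library 1 and 4.27 to 5.17 FPKM in the other libraries. The rest were named after their values were seen. Slc14a1 was likewise highest in EFV libraries 3 and 1 (3.45 and 3.41 FPKM). Pax2 was highest in EFV library 1 (0.22 FPKM), while EFV library 3 (0.18 FPKM) was below control library 1 (0.19 FPKM). Aldh1l1 was highest in EFV library 2 (4.60 FPKM), and EFV library 3 (3.85 FPKM) was below control libraries 1 and 3 (4.15 and 4.47 FPKM). Igfbp3 was lowest in EFV library 1 (0.36 FPKM).

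Markers of oligodendrocytes, the myelinating cells that in the mouse eye belong to the optic nerve and not to the retina, showed these libraries apart as well. The 10 listed genes of 11 summed to 17.8, 19.3 and 19.1 FPKM in the control libraries and 21.8, 19.4 and 26.1 FPKM in the EFV libraries, with a two-sided exact permutation p of 0.1, the smallest that 3 against 3 can give; by the mean of log2(FPKM + 0.1) over the same genes the p was 0.3. EFV libraries 3 and 1 were the highest in the sum, to which Mbp contributed the most. Mbp, the myelin basic protein gene, had 8.13, 8.58 and 7.98 FPKM in the control libraries and 10.9, 8.77 and 13.7 FPKM in the EFV libraries, and its fitted log2 fold change, on counts, was 0.20 (SE 0.09, unadjusted p = 0.0411, adjusted p = 0.999 in edgeR). Its FPKM differed more than its counts because the estimated transcript length varied between libraries, from 3504 to 4439 bases. Mobp, another myelin gene, named after its values were seen, had 0.23 FPKM in EFV library 1 and 0.15 FPKM in EFV library 3 but 0 to 0.01 FPKM in the other libraries. Cnp, the next most abundant gene of the list and also named after its values were seen, did not follow them, with 6.67, 7.42 and 8.18 FPKM in the control libraries and 6.62, 7.49 and 7.74 FPKM in the EFV libraries. The part of astrocyte or optic nerve RNA in the Gfap level was not tested.

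**Figure D5:**
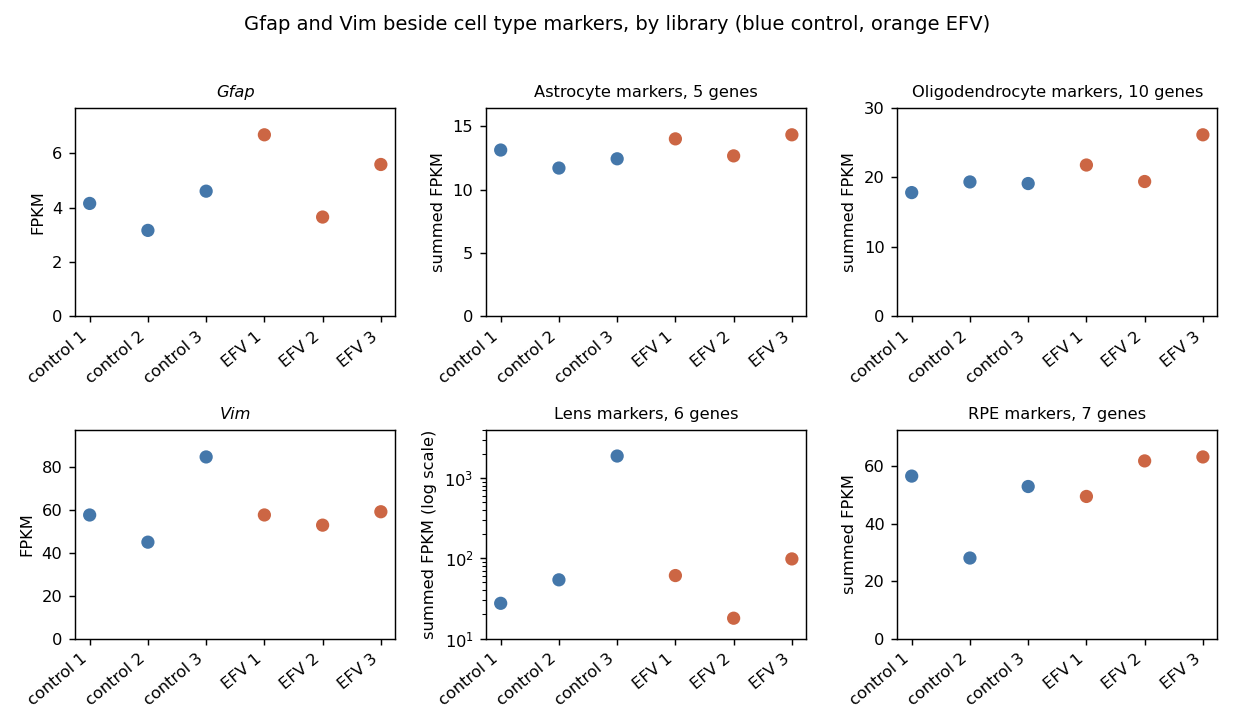
Gfap and Vim (FPKM) beside the summed FPKM of astrocyte, oligodendrocyte, lens (log scale) and RPE markers in each library, control in blue and EFV in orange. EFV libraries 1 and 3 are the highest for Gfap and for the astrocyte and oligodendrocyte sums, control library 3 is the highest for Vim and for the lens sum, and control library 2 is the lowest for Gfap, Vim and the RPE sum.

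RPE markers were lowest in control library 2, as given above (28.1 FPKM), and 7 of 7 had positive log2 fold changes with EFV. Of these, 2 passed at an unadjusted p of 0.05 in edgeR, as did 3.04% of all genes. They were Rpe65, the retinoid isomerase gene (0.58, SE 0.25), and Lrat, the lecithin retinol acyltransferase gene (0.65, SE 0.27). Both had an adjusted p of 0.999. The most abundant, Ttr, which codes for transthyretin, did not pass (0.33, SE 0.23). The RPE sum had a two-sided exact permutation p of 0.3. Without control library 2, Rpe65 was at 0.29 (SE 0.12) and still passed at the unadjusted threshold. In that fit Lrat was at 0.42 (SE 0.25) and Ttr at 0.06 (SE 0.10), which did not pass. Without control library 3 Lrat was at 1.06 (SE 0.19), with an adjusted p of 0.552 in edgeR. All 6 lens genes passed at an unadjusted p of 0.05 as lower with EFV, from -3.64 for Cryba1 to -2.28 for Bfsp2, and 0 of 6 passed without control library 3, with log2 fold changes of -0.29 to 0.70 (lens sum: two-sided exact permutation p = 0.7). The 7 microglial markers, led by Csf1r, summed to 7.45 to 9.10 FPKM in control and 8.30 to 8.89 FPKM with EFV (two-sided exact permutation p = 0.9). Of these, 6 were tested, and 4 had positive and 2 negative log2 fold changes. The sums of endothelial and rod markers, led by Kdr and Gnat1, overlapped between groups, with two-sided exact permutation p-values of 0.6 and 0.3. Fibroblast markers, led by Pdgfra, summed to 2.55 to 3.18 FPKM in control and 3.15 to 3.88 FPKM with EFV (two-sided exact permutation p = 0.2). Col1a2, a collagen gene of this list, passed at an unadjusted p of 0.05 in edgeR (log2 fold change 0.50, SE 0.20). None of the RPE, lens or fibroblast markers passed at an adjusted p of 0.05 in edgeR with all libraries.

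To describe the pattern of Gfap further, the genes most like it over the 6 libraries were sought by Pearson's r of log2 CPM among 12570 genes with a mean of at least 50 counts. The closest 5 were Alg8 (r = 0.989), Trim8 (0.989), Taf4b (0.982), 3110043O21Rik (0.981) and Thap11 (0.981). All had their highest level in EFV library 1 and their lowest in control library 2, as Gfap did. Their differences between libraries were smaller, for instance from 15.4 to 19.1 FPKM for Trim8, and none passed at an unadjusted p of 0.05 in edgeR (log2 fold changes of 0.06 to 0.24). Without EFV library 1 and control library 2, the 2 farthest from the median of Gfap, r was 0.932 to 0.999. As 6 points ranked over 12570 genes give high values readily, these are descriptions only.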

How the data were processed

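The 6 libraries (control 1 to 3 and EFV 1 to 3) were grouped by their labels. After filtering, the authors aligned reads with Bowtie2 v2.2.5 to mm10 and obtained the deposited expected counts per gene, which are not normalized, with RSEM v1.2.12. The deposited FPKM values are the authors' normalization of these counts by gene length and library total; a gene absent from a library was taken as 0. The submitters' processing notes also name HISAT2 2.0.4 without its role. Read filter, annotation release and strandedness are not given in the sources used here.

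Expected counts were rounded to whole numbers. A gene was tested if 3 or more libraries had 10 or more counts of it (15537 of 19401 genes; 14377 with an Entrez identifier). EFV was compared with control by edgeR 4.0.16 (R 4.3.3) with TMM scaling, the quasi-likelihood test, two-sided, no covariates, and Benjamini-Hochberg adjustment over the genes tested. The common biological coefficient of variation was 0.0983. With 23455167 to 24590278 counts per library, precision is lowest for scarce genes such as Fgf2 and Timp1. Marker lists were compared by summed FPKM with exact permutation tests. Of these lists, 2 genes are not reported here and were left out of every sum. Methods were tested on simulated data.

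The genes and lists were chosen with earlier results of these data known. Named were the 10 genes, in every other list the most abundant gene tested and those at an unadjusted p of 0.05 or less, and the 5 genes most like Gfap; genes named otherwise are marked as such, apart from those named only as members of a list. Alternatives were other scalings and filters, DESeq2 1.42.0, limma 3.58.1 on log2(FPKM + 0.1) or log2(FPKM + 1), and a Poisson model. The authors based their threshold on the Poisson distribution, but the model here does not reproduce their calls. Further alternatives were a block for the replicate number, Entrez genes alone, mean log2(FPKM + 0.1) for marker lists, CPM for levels and leaving out each library. Promoters are from RefSeq (GRCm38.p6).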

Additional observations from a re-analysis of the deposited data

How the results depend on the processing

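The count of the 9 genes at an unadjusted p of 0.05 was 0 in edgeR and in 12 of 18 alternatives; it was 1 in DESeq2 (Gfap), 3 in the Poisson model (Gfap, Vim and Cebpd) and 0 to 1 when a library was left out. At an adjusted p of 0.05 it was 3 in the Poisson model, which called 2043 of all genes, and 0 in the other alternatives; DESeq2 called 11 of all genes, none among the 9, and leaving out a library 0 to 1. The Poisson model takes no spread between pools, and the 6 libraries, taken in pairs, differed by 5.47 to 13.7 times the chi-square that counting alone gives. The count of genes whose groups did not overlap was 0 to 2 when a library was left out. It was 2 without control library 3 (Cebpd and Lcn2), beside 17.9% of all genes, and 1 without EFV library 2 (Gfap), beside 18.8%. It was also 1 without control library 2 (Osmr) and 1 without EFV library 1 (Lcn2). This count uses no test and has no value of its own for the Poisson model or the block. The median log2 fold change of the genes of this group ranged from -0.05 to 0.12.

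Stat3, at -0.00, changed sign with upper quartile scaling (0.0020), total counts (0.015), a minimum of 50 counts (0.00043), Entrez genes alone (0.00084) and limma with pseudocounts of 0.1 (0.020, also with no filter) and 1 (0.018). Left-out libraries gave -0.060 to 0.082 for Stat3, -0.34 to 0.12 for Vim, -0.13 to 0.034 for Socs3, -0.039 to 0.49 for Serpina3n and -0.41 to 0.044 for Fgf2; Gfap, Cebpd, Lcn2 and Osmr kept their sign in each alternative run on them. The mean log2(FPKM + 0.1), EFV minus control, was -0.049 for the microglial markers, whose sum was higher with EFV, and 0.0068 for the rod markers, whose sum was lower. Fgf2 has no value with a minimum of 50 counts.

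The replicate numbers are shared between groups, but nothing says that they pair the pools: the correlation of deviations was 0.102, 0.0784 and 0.110 for numbers 1, 2 and 3. Every library correlated best with its own number. Deviations were taken from the mean of each group of 3, so these correlations depend on each other. They cannot decide whether the pools were paired. With the replicate number as a block, 1 of the 9 genes (Gfap, log2 fold change 0.38, SE 0.12, unadjusted p = 0.0135, adjusted p = 0.999 in edgeR) passed at an unadjusted p of 0.05, Stat3 was at 0.0033, and 520 of all genes passed, against 472 without it; 0 passed at an adjusted p of 0.05.

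Counting error weighs most on scarce genes. The standard error of the log2 fold change from counting alone (Poisson model) was set beside that from edgeR, though the 2 are not parts of a sum. It was 0.29 beside 0.33 for Fgf2, 0.11 beside 0.15 for Socs3 and 0.11 beside 0.13 for Lcn2. For Gfap it was 0.07 beside 0.21 and for Vim 0.02 beside 0.18. After the data were seen, Junb (-0.51 to 0.11), Fos (-1.31 to -0.22), Cryba1 (-4.18 to 0.25) and the RPE and lens markers were also fitted without control library 2 or 3; of 6 lens genes at an unadjusted p of 0.05, 6 and 0 passed, and of 2 RPE genes, 1 and 2.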
